A study of Mus musculus with 4 samples.

Results

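The genes described here code for 38 proteins that build, anchor or assemble the sarcomere of striated muscle, in heart ventricles of mice at postnatal day 14. They were chosen by name from a fixed list, and all 38 had a row among the 36814 rows of the deposited table. They fall into 18 Z-disc genes, 6 M-band genes, 10 genes for assembly and filament capping, and 4 tropomyosin genes. RNA sequencing covered 2 Hnrnpu mutant mice and 2 wild type mice. The mutants came from crossing mice with a conditional Hnrnpu allele to Ckmm-Cre mice, in which the promoter of muscle creatine kinase drives the recombinase in striated muscle cells, so the other cells of the ventricle keep the gene. Both groups were of a mixed C57BL/6 & 129 S4 background, held 1 male and 1 female each, and were sampled from ventricles after the atria had been cut away. The labels do not say whether the wild type mice carried a floxed allele or the recombinase, nor whether the mice were littermates.

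The sarcomere is the contractile unit of muscle. The Z-disc marks its ends and anchors the thin filaments of actin through alpha-actinin and many adaptor proteins, the M-band crosslinks the thick filaments of myosin at its centre, and titin spans from one to the other. Tropomyosin lies along the thin filament, and leiomodins and tropomodulins act at the pointed end of that filament to set its length. The chaperone Unc45b and its partner Smyd1, a methyltransferase, help myosin to fold and enter the thick filament. In the second week after birth the mouse ventricle is still enlarging and its sarcomeres are maturing.

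Levels are RPKM, read number scaled to the length of the transcript and the size of the library, of which the authors gave 1 value per group, so no value per animal, SD or n stands beside a level. A gene is called when its adjusted p-value in the authors' deposited table is below 0.05, and a called gene is said to rise or fall. The 95% interval of a log2 fold change was computed from the error that the deposited p-value implies. The worth of 1 read, seen in small RNA genes, put the libraries at about 76400000 and 55700000 reads in mutant and 29200000 and 24900000 reads in wild type ventricles, if a group value is the mean of its libraries. In bulk tissue, fewer cells of a type and less RNA per cell cannot be told apart.

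Hnrnpu itself was listed at 15.2 RPKM in mutant and 32.7 RPKM in wild type ventricles, and with an adjusted p of 0.438 in the authors' deposited table the targeted gene was not called. The summed level of 10 cardiomyocyte markers was 12021 RPKM in mutant and 11859 RPKM in wild type, with none called and none at 0. Actc1 (4530 RPKM in mutant, 2380 RPKM in wild type) carried that sum: the other 9 markers were each lower in mutant and summed to 7491 RPKM in mutant and 9479 RPKM in wild type, and the median log2 fold change of the 10 was -0.31. Of 12 skeletal muscle markers, Mybpc2 rose to 13.6 RPKM in mutant against 2.31 RPKM in wild type, Tnni2 fell to 0.0633 RPKM in mutant against 1.03 RPKM in wild type, and Myf6 was at 0 in both groups. The 9 smooth muscle and mural markers that are not members summed to 948 RPKM in mutant and 303 RPKM in wild type, with none at 0 and 1 called, Tagln, which rose. Acta2 carried that sum, at 802 RPKM in mutant and 158 RPKM in wild type, and the other 8 summed to 146 RPKM in mutant and 145 RPKM in wild type. The median log2 fold change of the 9 was 0.08, with 6 higher and 3 lower in mutant. Among the lower was Smtn, at 9.22 RPKM in mutant and 24.3 RPKM in wild type. Myh11, at 2.95 RPKM in mutant and 3.93 RPKM in wild type, was also lower. Cnn1, at 1.74 RPKM in mutant and 0.619 RPKM in wild type, was among the higher without a call. Macrophage markers summed to 192 and 62.5 RPKM in mutant and wild type, with 1 of 7 called, Lyz2, and fibroblast markers to 1014 and 761 RPKM, with 0 of 9 called. All 7 macrophage markers and 6 of the 9 fibroblast markers had the higher level in mutant, with medians of 1.14 and 0.99. Of 7 endothelial markers, Vwf rose, 5 were lower in mutant without a call, and the median was -0.43. Of 5 atrial markers, Nppa rose and the others were not called. Myl4 stood higher in mutant, at 6.85 RPKM in mutant and 4.28 RPKM in wild type. Sln stood lower, at 1.66 RPKM in mutant and 6.46 RPKM in wild type. Myl7 also stood lower, at 17.7 RPKM in mutant and 27.9 RPKM in wild type. Bmp10 was at 0 in mutant and 0.0457 RPKM in wild type.

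Of the 38 genes, 4 were called. Synpo2l, a Z-disc adaptor, and Xirp1, an actin-binding protein of the intercalated disc, rose in mutant ventricles, while Cmya5, a large anchoring protein, and Tmod4, a capping protein best known from skeletal muscle, fell. The remaining 34 did not pass the test. Across all 24454 rows tested in the authors' deposited table, 3.51% were called, 2.03% higher and 1.48% lower, so 2 rises and 2 falls among 38 members is a count of a few genes, in a background where 5.28% of the rows averaging 1 RPKM or more were called. At an unadjusted p below 0.05, 6 members were higher and 6 lower, where 12.6% of all rows tested had such a p. By size alone 9 members were at least 2-fold higher and 7 at least 2-fold lower in mutant ventricles, against 11.5% and 14.8% of all rows tested. Only rows above 0 in both groups were counted as 2-fold here, which left out Myoz3. All rows tested include 2733 at 0 in wild type and 799 at 0 in mutant. The 11.5% and 14.8% therefore understate how common such differences were. Over the rows averaging 1 RPKM or more, of which 4 were at 0 in wild type, the shares were 11.4% and 8.48%.

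**Figure D1:**
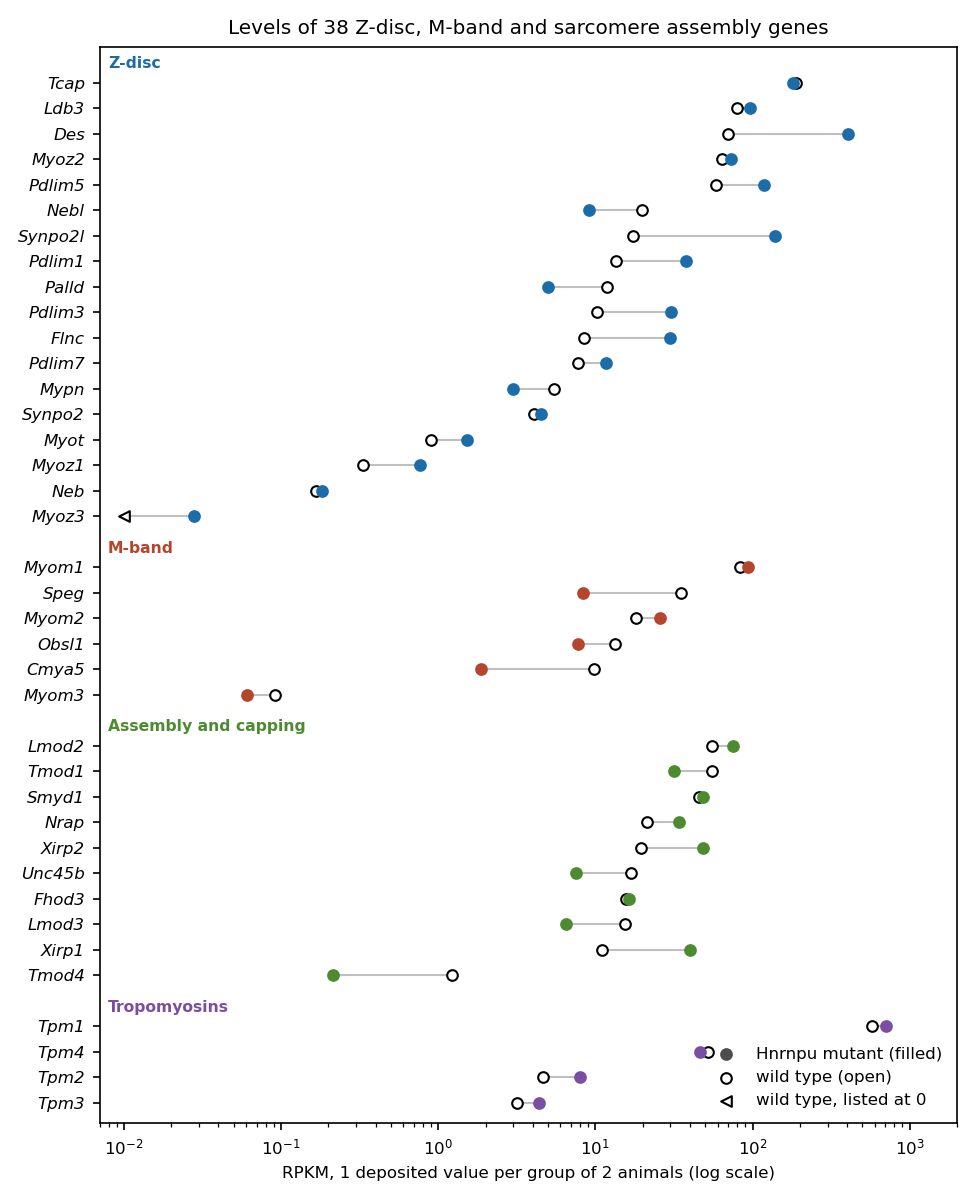
Level of each of the 38 genes, in RPKM on a log axis, with filled points for Hnrnpu mutant and open points for wild type ventricles, 1 deposited value per group, by class. Most points of a gene lie close together, while Synpo2l (138 RPKM in mutant, 17.4 in wild type) and Des (404 and 69.5) lie far to the right in mutant and Cmya5 (1.86 and 9.85), Speg (8.36 and 35.2) and Tmod4 (0.213 and 1.23) far to the left; Myoz3 was listed at 0 in wild type and its open mark is set at the axis edge.

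The promoters of the called members are shown first, with those of Des and Speg, neighbours on chromosome 1 whose levels differed in opposite directions without a call. RefSeq held a window from 250 bases before to 50 bases after the start for 29 of the 38 members (build GRCm38.p6, the start farthest upstream where a gene has several). Of the 4 called genes, Synpo2l, Cmya5 and Tmod4 had one. Capitals mark a match to the MEF2 site, on either strand, and the sequences run 5′ to 3′ on the gene's own strand: Synpo2l at chr14:20668305-20668604 (minus), Des at chr1:75360042-75360341 (plus), Speg at chr1:75375047-75375346 (plus), Cmya5 at chr13:93144675-93144974 (minus) and Tmod4 at chr3:95124264-95124563 (plus).
Synpo2l: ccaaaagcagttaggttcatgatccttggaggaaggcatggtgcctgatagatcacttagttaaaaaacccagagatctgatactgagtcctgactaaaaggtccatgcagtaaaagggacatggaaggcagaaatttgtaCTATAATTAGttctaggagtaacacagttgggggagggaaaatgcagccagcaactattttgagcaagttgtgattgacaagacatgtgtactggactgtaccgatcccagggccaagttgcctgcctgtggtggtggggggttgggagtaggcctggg
Des: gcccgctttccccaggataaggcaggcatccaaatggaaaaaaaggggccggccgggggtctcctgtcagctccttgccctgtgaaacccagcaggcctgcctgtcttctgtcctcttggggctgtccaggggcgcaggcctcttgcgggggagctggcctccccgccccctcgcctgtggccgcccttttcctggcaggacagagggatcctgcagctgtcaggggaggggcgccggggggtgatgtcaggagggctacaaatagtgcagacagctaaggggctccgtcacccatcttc
Speg: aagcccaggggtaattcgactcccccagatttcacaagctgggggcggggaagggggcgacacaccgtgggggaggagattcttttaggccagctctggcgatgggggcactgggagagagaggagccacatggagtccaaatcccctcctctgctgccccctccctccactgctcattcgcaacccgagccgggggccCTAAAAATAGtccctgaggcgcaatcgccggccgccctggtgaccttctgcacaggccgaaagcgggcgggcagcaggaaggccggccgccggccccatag
Cmya5: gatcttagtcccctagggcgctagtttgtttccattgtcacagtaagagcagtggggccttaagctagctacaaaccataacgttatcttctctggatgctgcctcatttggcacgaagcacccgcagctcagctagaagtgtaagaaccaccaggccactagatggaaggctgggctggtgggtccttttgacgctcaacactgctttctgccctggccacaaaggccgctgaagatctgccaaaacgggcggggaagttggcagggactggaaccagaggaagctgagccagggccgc
Tmod4: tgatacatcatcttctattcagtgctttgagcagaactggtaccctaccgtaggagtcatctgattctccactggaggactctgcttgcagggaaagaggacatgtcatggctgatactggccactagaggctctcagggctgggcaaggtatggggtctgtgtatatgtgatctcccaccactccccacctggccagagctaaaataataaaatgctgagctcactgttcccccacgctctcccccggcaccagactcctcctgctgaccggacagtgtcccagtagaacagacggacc

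The MEF2 site is the A/T-rich motif bound by the MEF2 transcription factors, which act at many muscle genes. It was found in the windows of 6 of 29 members (20.7%), namely Myom3, Myoz2, Speg, Synpo2, Synpo2l and Xirp2, against 3.29% of 27025 promoter windows of the same length. These genes did not share a direction: Synpo2l rose, Speg stood lower, and Myoz2 and Synpo2 had log2 fold changes of 0.18 and 0.15 in the authors' deposited table. Counted from the start, the match lies at -109 to -100 in Synpo2l and at -51 to -42 in Speg, and the windows of Des, Cmya5 and Tmod4 hold none. The CArG box, bound by serum response factor, was found in 2 members (6.90%), Ldb3 and Myom1, against 1.59% of all windows. The motif CATTCC, bound by TEAD factors, was found in 5 members (17.2%) against 14.7%, the E-box CANNTG in 23 members (79.3%) against 72.1%, and TATAAA, which can overlap a MEF2 site, in 3 members (10.3%) against 14.2%. Both strands were searched, and a match is a string of letters, not a measured binding site.

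Among the Z-disc genes, Synpo2l (chromosome 14, 21478168 to 21487576, mm9) changed most. It codes for CHAP, a protein of the synaptopodin family that binds alpha-actinin, and was listed at 138 RPKM in mutant and 17.4 RPKM in wild type ventricles. The authors' deposited table gives a 7.94-fold rise with adjusted p = 0.00307, and the 95% interval of the log2 fold change of 2.99 ran from 1.56 to 4.42. In order of abundance among the 38, Synpo2l ranked 4 in mutant and 17 in wild type. Its relative Synpo2, which codes for myopodin and is also made by smooth muscle, was listed at 4.51 RPKM in mutant and 4.05 RPKM in wild type. The interval for Synpo2, from -0.87 to 1.18, lay wholly below that of Synpo2l; the difference itself was not tested. Myoz1 is the next protein coding gene to Synpo2l, 2405 bases away on the same strand, and stood at 0.766 RPKM in mutant and 0.332 RPKM in wild type without a call.

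Des codes for desmin, the intermediate filament that ties neighbouring Z-discs to each other and to the cell membrane. It was listed at 404 RPKM in mutant and 69.5 RPKM in wild type ventricles, the second level among the 38 in mutant and the fifth in wild type. This 5.81-fold difference had p = 0.00747 and adjusted p = 0.132 in the authors' deposited table and was not called, with an interval of the log2 fold change from 0.68 to 4.40. Desmin is also made by smooth muscle, whose markers, given above, differed in direction; their part in this difference was not tested.

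The Z-disc genes nearest to a call were all higher in mutant. Pdlim3, which codes for the actinin-associated LIM protein, was listed at 30.4 RPKM in mutant and 10.3 RPKM in wild type, with adjusted p = 0.0598 in the authors' deposited table. Flnc, filamin C, a crosslinker of actin at the Z-disc and the cell membrane, stood at 29.7 RPKM in mutant and 8.49 RPKM in wild type, with adjusted p = 0.0713 in the authors' deposited table. Pdlim1, another PDZ and LIM domain protein that binds alpha-actinin, stood at 37.6 RPKM in mutant and 13.6 RPKM in wild type, with adjusted p = 0.0904 in the authors' deposited table. When p-values were adjusted over the rows with a mean of at least 1 RPKM only, Pdlim3 and Flnc were called, with adjusted p of 0.0402 and 0.0479, and Pdlim1 was not.

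The other PDZ and LIM domain genes differed less. Pdlim5, which codes for ENH, was listed at 119 RPKM in mutant and 58.6 RPKM in wild type, and Pdlim7, enigma, at 11.7 RPKM in mutant and 7.79 RPKM in wild type. Ldb3, which codes for Cypher, a binding partner of alpha-actinin whose loss disrupts Z-discs in mice, stood at 97.0 RPKM in mutant and 79.8 RPKM in wild type. With Pdlim1 and Pdlim3, all 5 of these genes had a higher level in mutant, and the family sum was 296 RPKM in mutant against 170 RPKM in wild type, but none was called. Ldb3 made up 32.8% of that sum in mutant and 46.9% in wild type, and Pdlim5 40.2% in mutant and 34.5% in wild type.

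Z-disc genes with the lower level in mutant were Palld, Nebl, Mypn and Tcap. Palld, palladin, an actin scaffold also found in smooth muscle and fibroblasts, was listed at 4.99 RPKM in mutant and 11.8 RPKM in wild type (p = 0.0254, adjusted p = 0.274 in the authors' deposited table). Its relative Mypn, myopalladin, which is specific to striated muscle, stood at 3 RPKM in mutant and 5.48 RPKM in wild type. Nebl, nebulette, the cardiac relative of nebulin that links thin filaments to the Z-disc, stood at 9.12 RPKM in mutant and 19.7 RPKM in wild type (p = 0.0769, adjusted p = 0.491 in the authors' deposited table). Tcap, telethonin, which caps the ends of titin in the Z-disc, was among the most abundant members, at 181 RPKM in mutant and 190 RPKM in wild type. Its interval on the log2 scale ran from -0.96 to 0.82. With a fold of 0.953 and p = 0.878 in the authors' deposited table, the implied error is a ratio of small values and loosely set. The interval therefore does not show that a 2-fold change is excluded.

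The calsarcins, which tether the phosphatase calcineurin to the Z-disc, were nearly all Myoz2, the cardiac form, at 72.7 RPKM in mutant and 64.4 RPKM in wild type. Myoz3, a form of fast skeletal muscle, was listed at 0.0281 RPKM in mutant, which is worth about 12.8 reads by the length of a later annotation, and at 0 in wild type. Myot, myotilin, stood at 1.52 RPKM in mutant and 0.899 RPKM in wild type, and Neb, nebulin, the giant ruler protein of skeletal muscle, at 0.181 RPKM in mutant and 0.167 RPKM in wild type. None of these was called. Over the 17 Z-disc genes above 0 in both groups, 13 stood higher and 4 lower in mutant, and the median log2 fold change was 0.58. The median over all rows was 0.08 at a mean of at least 1 RPKM and 0.34 at a mean of at least 50 RPKM, where some Z-disc genes lie.

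**Figure D2:**
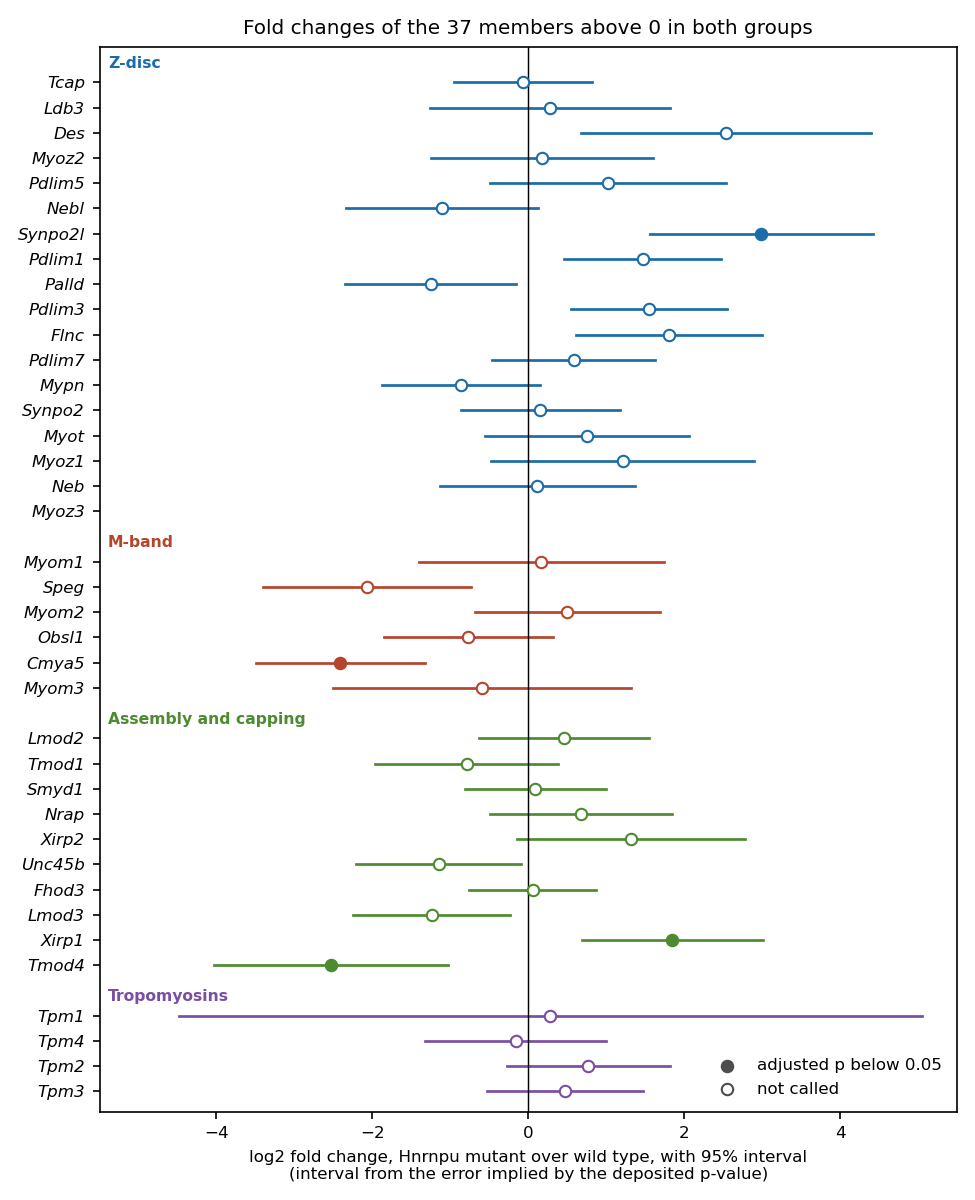
Log2 fold change of Hnrnpu mutant over wild type for the 37 members above 0 in both groups, with lines for the 95% interval from the error implied by the deposited p-value and filled points for genes with an adjusted p below 0.05. Synpo2l (2.99) and Xirp1 (1.85) are filled on the right and Cmya5 (-2.41) and Tmod4 (-2.53) on the left, and the line of Tpm1, from -4.48 to 5.05, is the longest.

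The M-band class held 1 called fall. Cmya5 (chromosome 13, 93810668 to 93914679, mm9) codes for myospryn, a large protein that binds titin, desmin and dystrobrevin and has been placed at the M-band, the Z-disc and the costamere. It was listed at 1.86 RPKM in mutant and 9.85 RPKM in wild type ventricles. The authors' deposited table gives a fold of 0.188 with adjusted p = 0.00127, the smallest adjusted p among the 38. The interval of its log2 fold change of -2.41 ran from -3.50 to -1.32.

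Speg codes for a kinase of the obscurin family that is needed for the junctions between the sarcoplasmic reticulum and the cell membrane. It was listed at 8.36 RPKM in mutant and 35.2 RPKM in wild type. With p = 0.00229 and adjusted p = 0.0594 in the authors' deposited table it was just outside the threshold, and it was called, with adjusted p = 0.0397, when the adjustment ran over rows averaging 1 RPKM or more. Speg starts 6717 bases beyond the end of Des on the same strand of chromosome 1, with no other protein coding row between them. The neighbours stood apart: Des had a log2 fold change of 2.54 and Speg of -2.07 in the authors' deposited table, and their intervals, from 0.68 to 4.40 and from -3.40 to -0.74, did not overlap. The difference between the neighbours was not tested.

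Obsl1, obscurin-like 1, which joins titin to myomesin, lies further along chromosome 1 and stood at 7.80 RPKM in mutant and 13.3 RPKM in wild type without a call. It overlaps Chpf by 162 bases on the same strand and Tmem198 on the other, and Chpf was listed at 18.5 RPKM in mutant and 6.31 RPKM in wild type. The myomesins, which form the elastic crosslinks of the M-band itself, showed no call. Myom1 was listed at 93.6 RPKM in mutant and 83.2 RPKM in wild type, and Myom2, the form of mature fast muscle and adult heart, at 25.6 RPKM in mutant and 18.1 RPKM in wild type. Myom3, a form best known from skeletal muscle, stood at 0.0606 RPKM in mutant and 0.0914 RPKM in wild type, worth about 44.7 and 27.6 reads. The median log2 fold change of the 6 M-band genes was -0.68, and without Speg and Cmya5 it was -0.21, so it rested on those genes.

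Among the assembly and adhesion genes, the Xin repeat genes were the ones that stood highest above wild type. Xirp1 (chromosome 9, 119922873 to 119932716, mm9) codes for Xin, which binds actin and beta-catenin at the intercalated disc, where the last sarcomeres of a cell are anchored. It was listed at 40.0 RPKM in mutant and 11.1 RPKM in wild type, 3.61-fold in the authors' deposited table, with adjusted p = 0.0497, just inside the threshold. The interval of its log2 fold change of 1.85 ran from 0.69 to 3.01. Xirp2, its relative and a known target of MEF2A, stood at 48.5 RPKM in mutant and 19.5 RPKM in wild type (p = 0.0774, adjusted p = 0.492 in the authors' deposited table). Nrap, a scaffold of early myofibrils at the intercalated disc, stood at 34.2 RPKM in mutant and 21.4 RPKM in wild type without a call.

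Genes of the pointed end of the thin filament did not share a direction. Lmod2, the cardiac leiomodin that lengthens thin filaments, was listed at 75.6 RPKM in mutant and 55.0 RPKM in wild type. Lmod3, the leiomodin best known from skeletal muscle, was listed at 6.54 RPKM in mutant and 15.4 RPKM in wild type (p = 0.0160, adjusted p = 0.209 in the authors' deposited table). Lmod3 thus made up 7.96% of the summed leiomodin level in mutant and 21.9% in wild type, though neither gene was called and the shift was not tested. Tmod1, the cardiac tropomodulin, stood at 31.8 RPKM in mutant and 54.9 RPKM in wild type; it overlaps Tstd2 on the other strand, listed at 14.1 RPKM in mutant and 31.8 RPKM in wild type.

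Tmod4 (chromosome 3, 94928398 to 94933131, mm9) was the only one called of these 4 genes. It fell to 0.213 RPKM in mutant, against 1.23 RPKM in wild type, a fold of 0.173 with adjusted p = 0.0317 in the authors' deposited table, and the interval of its log2 fold change of -2.53 ran from -4.03 to -1.03. These levels are worth about 35.6 reads in the mutant and 84.2 reads in the wild type libraries, far fewer than for the other called members. Tmod4 made up 0.67% of the tropomodulin level in mutant and 2.19% in wild type. Of the 12 skeletal muscle markers, Tnni2 also fell, Mybpc2 rose, and the remaining 10 stood at 0.396 RPKM or less in each group. At levels so near 0, those 10 cannot show whether the list moved with Tmod4.

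Of the factors that fold myosin or elongate actin, Unc45b, the myosin chaperone that works with Hsp90, was listed at 7.56 RPKM in mutant and 16.8 RPKM in wild type (p = 0.0324, adjusted p = 0.317 in the authors' deposited table). It overlaps 1700003F17Rik on the other strand, listed at 6.96 RPKM in mutant and 18.2 RPKM in wild type, and the use of strand in the counting is not given in the sources used here. Smyd1, a lysine methyltransferase that binds myosin and partners Unc45b, stood at 48.7 RPKM in mutant and 45.9 RPKM in wild type. Fhod3, a formin that lengthens cardiac thin filaments, stood at 16.3 RPKM in mutant and 15.7 RPKM in wild type. The intervals for Smyd1 and Fhod3 ran from -0.82 to 0.99 and from -0.76 to 0.87 on the log2 scale. As for Tcap, p-values of 0.851 and 0.894 in the authors' deposited table leave these intervals loosely set. Over the 10 assembly and capping genes 6 stood higher and 4 lower, with a median log2 fold change of 0.07.

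Tropomyosin was mostly Tpm1, the striated muscle alpha form, at 705 RPKM in mutant and 579 RPKM in wild type, 92.3% of the summed tropomyosin level in mutant and 90.6% in wild type. It was the most abundant of the 38 genes in both groups and had the widest interval of the log2 fold change, from -4.48 to 5.05. Tpm4, a form of the cytoskeleton, was listed at 46.6 RPKM in mutant and 52.2 RPKM in wild type. Tpm2, the beta form of skeletal and smooth muscle, stood at 7.95 RPKM in mutant and 4.66 RPKM in wild type, and Tpm3, a form of slow muscle and the cytoskeleton, at 4.36 RPKM in mutant and 3.15 RPKM in wild type. None of the 4 was called. The 4 genes are close relatives that each make several isoforms, so reads may have been split between them, and isoforms were not analysed here.

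**Figure D3:**
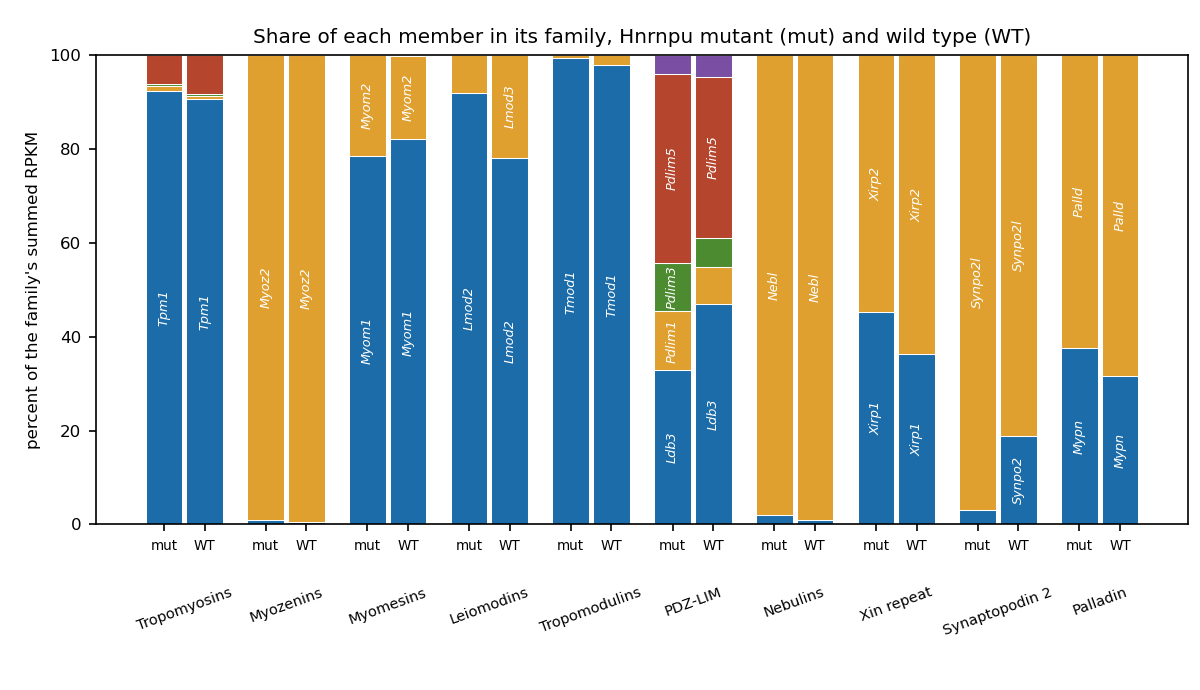
Share of each member in the summed RPKM of its family, in percent, with the Hnrnpu mutant bar left of the wild type bar; segments above 9% carry the gene's name, and 1 deposited value per group stands behind each bar. Tpm1, Myoz2, Tmod1 and Nebl fill nearly all of their bars in both groups, while the Synpo2l segment is 96.8% in mutant and 81.1% in wild type and the Lmod3 segment 7.96% in mutant and 21.9% in wild type.

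The implied error of these values differed with abundance. The implied standard error of the log2 fold change had a median of 0.59 over the members and ran from 0.42 for Fhod3 to 2.43 for Tpm1. Both genes had high p-values in the authors' deposited table, 0.894 and 0.907, where the implied error is loosely set. Among the 9 members with a mean of at least 50 RPKM the median was 0.77, beside 0.61 over the 347 rows at that level, and 1 of the 9, Synpo2l, was called, where 9.22% of those rows were. Among the 24 members between 1 and 50 RPKM it was 0.55, beside 0.53 over all rows in that range. Of the 38 members, 33 had a mean of at least 1 RPKM, and Tmod4, Myoz1, Neb, Myom3 and Myoz3 did not.

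**Figure D4:**
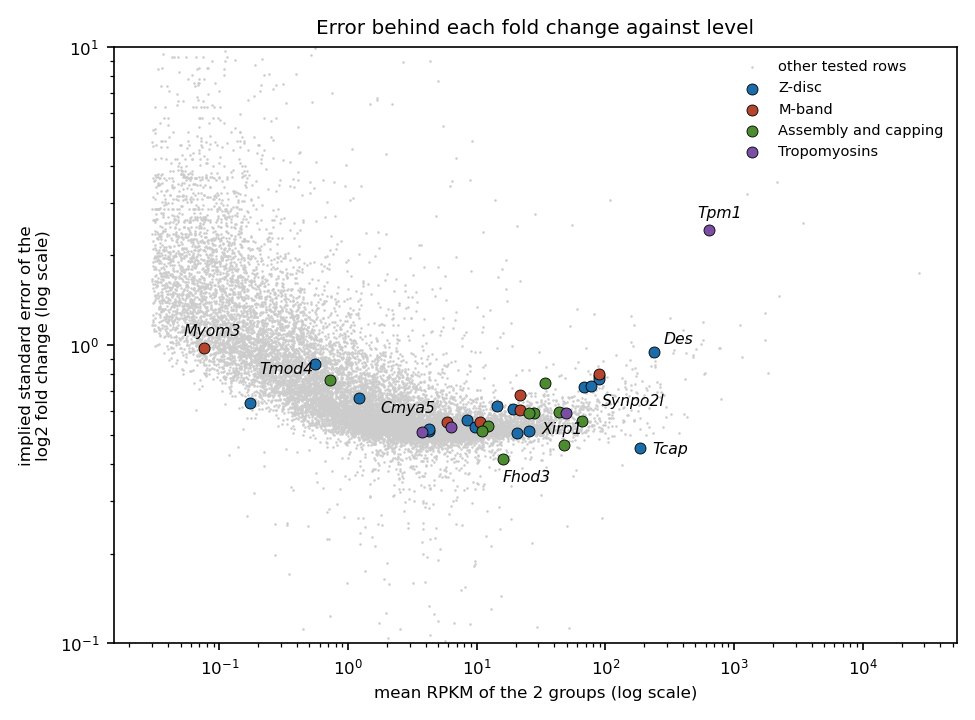
Implied standard error of the log2 fold change against the mean RPKM of the groups, on log axes, with coloured points for the members by class and grey points for other tested rows averaging 0.03 RPKM or more with an error between 0.1 and 10. The median error was 0.53 over all rows between 1 and 50 RPKM and 0.61 over rows of at least 50 RPKM. Among the members, Tpm1 (2.43), Myom3 (0.98) and Des (0.95) have the largest errors. Tcap, at 181 RPKM in mutant and 190 RPKM in wild type, has one of the lowest (0.45).

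Other sarcomere genes gave the context. Of 16 contractile genes of the thick and thin filaments and titin, 1 rose, Acta1, skeletal muscle actin, listed at 827 RPKM in mutant and 15.9 RPKM in wild type, and none fell. The most abundant of this list were Actc1, cardiac actin, at 4530 RPKM in mutant and 2380 RPKM in wild type, and Tnnt2, cardiac troponin T, at 1640 RPKM in mutant and 1840 RPKM in wild type, neither called. The median log2 fold change of the contractile list was -0.24. Of 17 partners of the Z-disc and genes of its turnover, 3 rose and none fell. Fhl1, a LIM domain protein that binds titin, was listed at 274 RPKM in mutant and 13.0 RPKM in wild type. Ankrd1, a titin-bound stress sensor, stood at 1020 RPKM in mutant and 89.1 RPKM in wild type (adjusted p = 0.0193 in the authors' deposited table), and its relative Ankrd2 at 3.35 RPKM in mutant and at 0 in wild type. Csrp3, muscle LIM protein, the other of the 2 most abundant in this list, stood at 854 RPKM in mutant and 312 RPKM in wild type without a call. The median over the 16 partners above 0 in both groups was 1.08, against 0.58 for the Z-disc members, -0.68 for the M-band genes, 0.07 for the assembly genes and 0.38 for the tropomyosins. These medians are descriptions of genes measured in the same 4 animals, and the differences between classes were not tested.

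**Figure D5:**
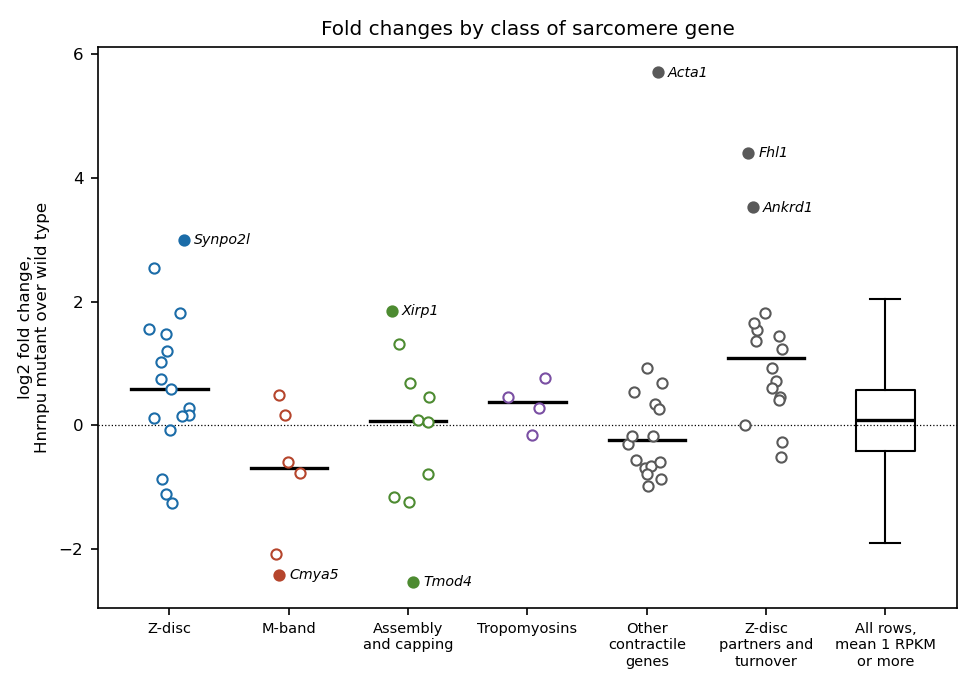
Log2 fold change of Hnrnpu mutant over wild type for each gene above 0 in both groups of the 4 member classes and of 2 other sarcomere lists, with filled, named points for genes with an adjusted p below 0.05, black lines for medians, and a box for all rows with a mean of at least 1 RPKM (box from quartile to quartile, whiskers to 1.5 times its height). The Z-disc members spread mostly above 0 around a median of 0.58 and the M-band genes mostly below it around -0.68, and the spread of each class overlaps the box.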

How the data were processed

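RNA of ventricles was sequenced in 2 Hnrnpu mutant and 2 wild type mice. Per the file headers, the deposited values are RPKM (1 per group), a fold (ratio of mutant to control) and its log2, and a p-value with its adjusted form. Bowtie 0.12.9, DESeq and mm9 are named in the submitters' processing notes, with no role for each; annotation, counter, treatment of multi-mapped reads and strand were not given in the sources used here. With 2 animals per group, how the authors' test estimated the spread between animals is not given in the sources used here. The p-values and the errors implied by them therefore cannot be read as the measured spread of a gene between animals.

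The authors' test was used as deposited, over 24454 rows; a recomputed Benjamini-Hochberg adjustment differed from theirs by 0.593% or less. The 95% intervals assume a two-sided normal test. Simulated data used to check this step drew their p-values from that same test. The check therefore covers the arithmetic only and cannot show that the intervals fit the deposited p-values. Library sizes were read from small RNA genes above 0 in 1 group alone (159 in mutant, 108 in wild type) with lengths from the table; such genes step by the worth of 1 read if RPKM was scaled by mapped reads, and which library is which animal was not assigned. Reads behind a level used exonic lengths of GENCODE vM21 and are approximate. Intervals cover no error beyond the authors' test. No member had a repeated row. Members, classes, marker lists and the rule to name all 38 members, and of other lists the called genes and the 2 most abundant, were chosen with earlier results of these data known. For the marker lists the called genes are given, and the other genes named are examples chosen without a fixed rule. Analyses used Python 3.11.15, pandas 2.3.3 and scipy 1.17.1. Other adjustments, thresholds, pseudocounts and scalings were tried. No value per animal was analysed here.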

Additional observations from a re-analysis of the deposited data

How the results depend on the processing

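No paired analysis was possible because the table holds 1 value per group, and for the same reason leaving out an animal, another count test and limma were not run. The members called higher numbered 2 as deposited, 4 when p-values were adjusted over rows with a mean of at least 1 RPKM or of at least 5 RPKM, 5 at an adjusted p below 0.1 and 9 by a 2-fold difference with no test. Those called lower numbered 2, 2, 2, 3 and 7; in the filtered adjustments Speg was called and Tmod4, below the filter, was not tested. The median log2 fold change of all members was 0.18 as deposited, 0.28 among those averaging 1 RPKM or more and 0.28 without Speg, Cmya5, Synpo2 and Palld. That of the Z-disc class was 0.58, against 0.47 and 0.34 with pseudocounts of 0.1 and 1 and 0.75 without Synpo2 and Palld. That of the M-band class was -0.68, against -0.51 and -0.37 with the pseudocounts and -0.21 without Speg and Cmya5. Centring on rows with a mean of at least 1 RPKM shifted each value by 0.08, which took the assembly median to -0.01 and turned the sign of Fhod3 alone among the members. Precision was limited by 1 test on 2 animals per group, by few reads for Tmod4, Myom3, Myoz1 and Myoz3, and by large errors for Tpm1.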
